A study of Mus musculus with 38 samples.

Results

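Hair and inner root sheath keratins, together with non-keratin genes of the same structures, were followed in tail skin of mice. The 32 genes were taken by symbol from a list, and 30 of them were found among the 19218 genes analysed. This list and the other gene lists below were chosen with earlier results of these data known. Their shares of called genes are therefore not independent of the data. Krt74 of the inner root sheath and Krt85 of the hair matrix were not analysed here. The 30 genes were grouped by the layer they are known for, with 9 genes of the inner root sheath, 1 of the companion layer, 7 of the cortex, 1 of the matrix and early shaft, 5 of the cuticle, the pair Krt36 and Krt84, and 5 other follicle genes. All 30 passed the filter on low counts in each of the 7 comparisons made.

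The 38 libraries of bulk RNA sequencing fell into 6 groups. There were 5 libraries of wild type mice given hippuric acid intraperitoneally (hippuric_acid) and 3 of wild type mice given its vehicle by the same route (vehicle). A further 6 had vitiligo induction and ABX (vitiligo_ABX), 9 had vitiligo induction (vitiligo), 6 were wild type with ABX and no induction (no_induction_ABX), and 9 were wild type with neither (no_induction). The series asked how induced vitiligo, depletion of gut microbes by ABX, and hippuric acid, which the body makes from products of gut microbes, alter skin. How vitiligo was induced, which drugs ABX stands for, and the strain, age and sex of the mice are not given in the sources used here. The labels do not say if each library is its own mouse, so the p-values weigh differences only against library-to-library spread, part of which may be technical.

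As background, hair keratins build filaments from a type I and a type II chain, and they are made mainly in follicles that are growing a hair. The inner root sheath is a sleeve that moulds the forming hair and is shed before the hair leaves the skin, the cortex makes up most of the shaft, and the cuticle is its outer layer of overlapping cells. Epidermis between the follicles of mouse tail alternates between scales, in which the hard keratins Krt31 and Krt36 are made, and interscale skin, in which Krt10 and Krt2 are made. Krt84 and Krt36 are also known from the filiform papillae of the tongue. In bulk tissue, fewer cells of a type and less RNA per cell cannot be told apart, and this holds for every result that follows.

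Library totals ran from 15.3 to 27.9 M counts (1 M is 1000000). The marker lists of skin were high in all libraries, with 11955 to 46939.5 CPM (counts scaled to a library total of 1000000) summed over 9 keratinocyte genes and 4604 to 21578 CPM over 7 fibroblast genes. The sums over 14 gut genes (31.3 to 112 CPM), 9 skeletal muscle genes (2.57 to 18.7 CPM) and 8 bone and cartilage genes (5.97 to 41.9 CPM) were low. Transcripts of 4 Y-linked genes summed to 173 CPM in vehicle 001, 229 CPM in no_induction 011 and 197 CPM in no_induction 012, and stayed under 1 CPM in the other 35 libraries.

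Ratios between members set 3 libraries apart from the other 35, namely vitiligo_ABX 003, vitiligo 001 and no_induction_ABX 006. Krt84 and Krt36 kept a nearly fixed ratio of 1.15 to 1.42 in the other 35 libraries, against 0.659 in vitiligo_ABX 003, 0.582 in vitiligo 001 and 0.509 in no_induction_ABX 006. Tchhl1, a relative of trichohyalin, over Krt35 of the early shaft was 0.0141, 0.0109 and 0.00973 in the same 3 libraries and 0.0329 to 0.605 elsewhere. Krt39 over Krt32, both of the cuticle, was 0.0288, 0.0558 and 0.0505 in them and at least 0.0849 elsewhere. These 3 libraries held the lowest 3 values in 7 of 8 ratios examined. The exception was Krt72 over Krt73, for which vitiligo 001 (0.208) ranked 7 from the lowest. Gaps were narrow in places, with vitiligo 001 at 0.431 against at least 0.435 in the other 35 libraries for Krt34 over Krt31. For Krt26 over Krt28 vitiligo 001 was at 0.151, against at least 0.161 in the other 35. The ratios were chosen after the values were seen, and counts of called members are given with and without these libraries where the groups hold them.

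**Figure D1:**
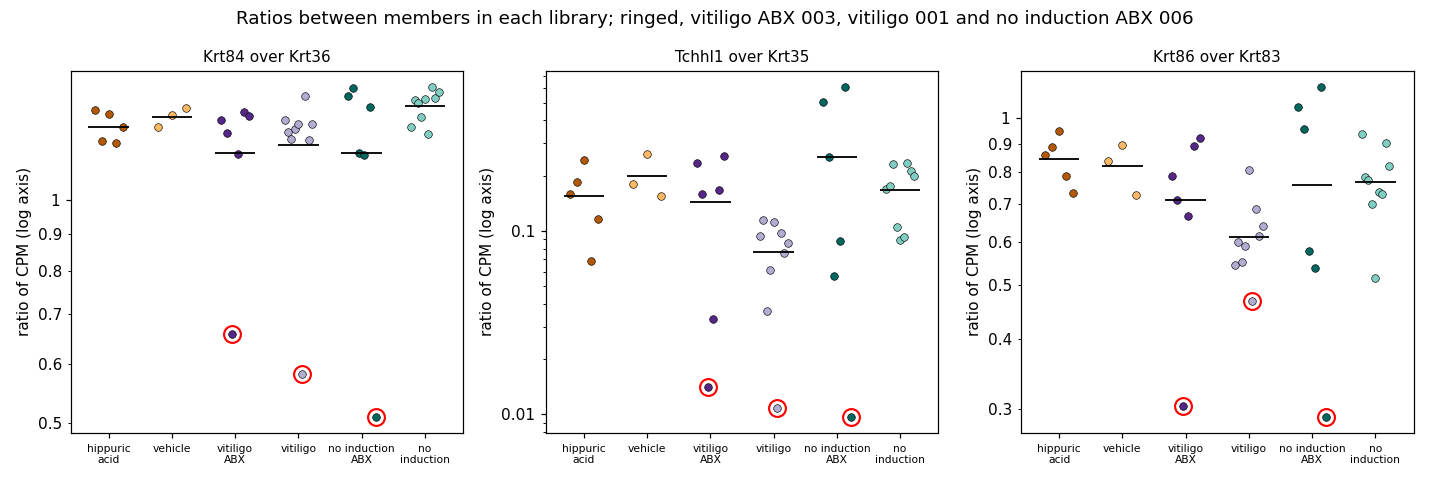
Ratios of Krt84 to Krt36, Tchhl1 to Krt35 and Krt86 to Krt83 in each of 38 libraries by group (points, log axes; lines are group means). The ringed libraries, vitiligo_ABX 003 (0.659), vitiligo 001 (0.582) and no_induction_ABX 006 (0.509), lie under the range of 1.15 to 1.42 of all others for Krt84 over Krt36.

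Levels differed widely between members. Per kilobase of gene length, taken as the union of annotated exons, the mean of the 9 no_induction libraries was 6789 CPM per kb for Krt36 and 5750.0 CPM per kb for Krt84. Next came Krt71 at 1213 and Krt25 at 961 CPM per kb, the type II and type I chains of the inner root sheath, followed by the cortex keratins Krt33b at 784, Krt83 at 617, Krt31 at 535 and Krt81 at 508 CPM per kb. Krt26 of the inner root sheath cuticle was the lowest member, at 25.2 CPM per kb, with Hephl1, a copper-dependent iron oxidase, at 28.3 and Padi3, an enzyme that converts arginines of trichohyalin to citrulline, at 38.5 CPM per kb. This rank depends on the length used, since by CPM alone Krt40 was the lowest member (61.5 CPM, against 92.6 CPM for Krt26). Krt25, Krt27, Krt28, Krt71, Krt73, the 7 cortex keratins, Krt35, S100a3 and Selenbp1 held counts that were not whole, as arise when reads are shared between similar genes, so the single values of the near-identical Krt81, Krt83 and Krt86 and of Krt31, Krt33a, Krt33b and Krt34 are uncertain.

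Start-site regions are shown for 5 members that mark the contrast described below, between the pair Krt36 and Krt84 and the keratins Krt71 (inner root sheath), Krt31 (cortex) and Krt32 (cuticle). Krt31 is also made in tail scales, so its level in bulk tail skin can hold both sources. They are the 250 bases before the transcript start in RefSeq, build GRCm38.p6, all on the minus strand, at chr11:100105627-100105876 (Krt36), chr15:101532821-101533070 (Krt84), chr15:101743098-101743347 (Krt71), chr11:100050552-100050801 (Krt31) and chr11:100088270-100088519 (Krt32). Capitals mark TATAAA, one form of the TATA box, and CTTTGAA, a core sequence of LEF1 and TCF factors.
Krt36: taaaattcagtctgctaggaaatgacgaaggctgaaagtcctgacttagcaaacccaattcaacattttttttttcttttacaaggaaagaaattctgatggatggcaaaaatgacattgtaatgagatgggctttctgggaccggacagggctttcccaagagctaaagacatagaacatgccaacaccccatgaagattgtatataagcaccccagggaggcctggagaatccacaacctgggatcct
Krt84: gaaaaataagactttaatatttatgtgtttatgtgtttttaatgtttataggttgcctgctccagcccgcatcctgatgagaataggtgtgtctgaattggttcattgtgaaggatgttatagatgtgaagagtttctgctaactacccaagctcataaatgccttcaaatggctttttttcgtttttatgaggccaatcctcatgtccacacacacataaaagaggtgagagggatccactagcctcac
Krt71: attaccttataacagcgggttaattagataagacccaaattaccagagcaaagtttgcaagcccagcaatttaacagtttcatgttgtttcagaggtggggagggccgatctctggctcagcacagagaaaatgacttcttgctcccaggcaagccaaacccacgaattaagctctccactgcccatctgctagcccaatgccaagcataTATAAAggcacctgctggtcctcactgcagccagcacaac
Krt31: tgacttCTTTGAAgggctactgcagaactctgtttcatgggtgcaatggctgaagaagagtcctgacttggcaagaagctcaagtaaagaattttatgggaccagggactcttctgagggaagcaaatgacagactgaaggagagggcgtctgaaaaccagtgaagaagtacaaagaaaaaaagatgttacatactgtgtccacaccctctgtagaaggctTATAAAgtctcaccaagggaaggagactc
Krt32: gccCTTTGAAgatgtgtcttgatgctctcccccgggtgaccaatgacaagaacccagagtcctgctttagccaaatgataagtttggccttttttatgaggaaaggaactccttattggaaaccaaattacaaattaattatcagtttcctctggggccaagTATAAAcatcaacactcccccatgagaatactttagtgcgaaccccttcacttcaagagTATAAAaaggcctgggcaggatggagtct
TATAAA began 40 bases before the start in Krt71 and 29 bases before it in Krt31 and Krt32, with a further match in Krt32 at 88 bases. No TATAAA and no LEF1 or TCF core stood in the windows of Krt36 and Krt84, which says only that these letters are not there. Other forms of the TATA box were not searched for, so the pair is not shown to lack one.

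In the windows from 250 bases before to 50 bases after the start, which were found for 24 of the 30 members, TATAAA on the gene's own strand occurred in 11 of 24 (45.8%), against 8.88% of 27025 promoters in the table. Members with it were Krt25, Krt26, Krt27, Krt28, Krt71 and Krt73 of the inner root sheath, Krt31, Krt33b and Krt34 of the cortex, and Krt32 and Krt40 of the cuticle. CTTTGAA or CTTTGAT on either strand occurred in 7 of 24 (29.2%), against 8.77% of all promoters. ACGC, the core bound by FOXN1, occurred on either strand in 10 of 24 (41.7%), against 55.4% of all promoters. Neighbouring keratin genes are related in sequence, so these matches are a description and not a count of independent sites.

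By compartment, levels were lowest in no_induction_ABX everywhere in the follicle except Krt75. Levels here are means of log2(CPM + 1) over the members of a compartment, given as mean ± SD over libraries (n = 5 hippuric_acid, 3 vehicle, 6 vitiligo_ABX, 9 vitiligo, 6 no_induction_ABX and 9 no_induction). The inner root sheath stood at 8.58 ± 0.41 in hippuric_acid, 8.19 ± 0.63 in vehicle, 8.72 ± 0.81 in vitiligo_ABX, 7.91 ± 0.68 in vitiligo, 7.06 ± 0.91 in no_induction_ABX and 8.77 ± 0.61 in no_induction. The cortex stood at 9.47 ± 0.52 in hippuric_acid, 9.10 ± 0.77 in vehicle, 10.23 ± 0.32 in vitiligo_ABX, 9.23 ± 0.74 in vitiligo, 8.21 ± 1.05 in no_induction_ABX and 9.78 ± 0.48 in no_induction. In both compartments vitiligo_ABX, no_induction and hippuric_acid were the 3 highest groups, and neighbours among them in the order differed by less than the SD of the lower group.

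The cuticle stood at 7.52 ± 0.41 in hippuric_acid, 7.23 ± 1.00 in vehicle, 7.92 ± 0.40 in vitiligo_ABX, 7.52 ± 0.53 in vitiligo, 5.67 ± 1.00 in no_induction_ABX and 7.90 ± 0.39 in no_induction. All 6 no_induction_ABX libraries (4.12 to 6.63) lay under all 9 no_induction libraries (7.43 to 8.49) at this layer. The pair Krt36 and Krt84 was ordered differently, at 12.58 ± 0.26 in hippuric_acid, 13.52 ± 0.04 in vehicle, 11.93 ± 0.86 in vitiligo_ABX, 13.32 ± 0.67 in vitiligo, 11.92 ± 0.58 in no_induction_ABX and 13.64 ± 0.36 in no_induction. The 3 groups given ABX or hippuric acid were thus the lowest 3 groups for the pair, while vitiligo_ABX was the highest group for cortex and cuticle. Single libraries were low across compartments. No_induction_ABX 005 had the lowest level of all 38 libraries over the 28 members other than the pair (5.58), and vehicle 001 was the lowest of its group (7.17).

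**Figure D2:**
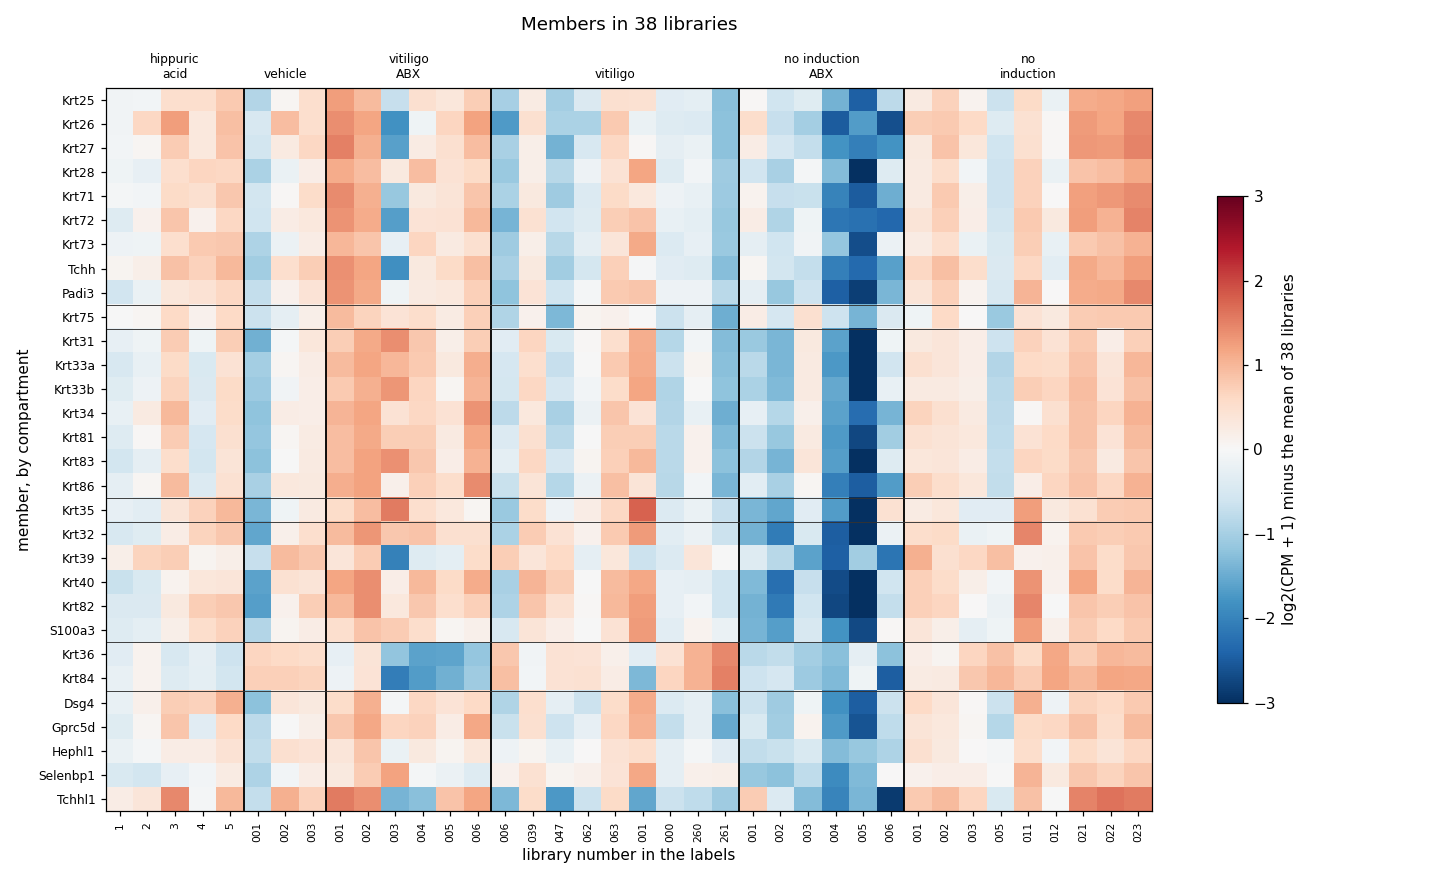
Level of 30 members (lines, by compartment) in 38 libraries (columns, by group), as log2(CPM + 1) minus the mean of all libraries, with colours from -3 (blue) to 3 (red). No_induction_ABX is low for nearly all members, and Krt36 and Krt84 are low in vitiligo_ABX libraries 003 to 006 where cortex keratins are high.

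With vitiligo induction, 3 of 9 inner root sheath genes and Tchhl1 were lower. Of 30 members 4 fell and 0 rose in vitiligo against no_induction (2.47% of all genes tested were called lower, 5.27% higher and 7.74% in either direction), all 30 had a negative log2 fold change, and the median was -0.44 against 0.01 over all genes. The 4 were Tchhl1, Krt26, Krt27 and Tchh. Called means an adjusted p under 0.05 by edgeR's quasi-likelihood test, adjusted by Benjamini-Hochberg over all genes tested, and errors of log2 fold changes are standard errors.

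Tchhl1 had a lowest, median and highest value of 12.9, 25.9 and 67.7 CPM in vitiligo and of 32.6, 82.8 and 142 CPM in no_induction (log2 fold change -1.48 ± 0.34, adjusted p = 0.011). The groups overlapped, with 7 of 9 vitiligo libraries under every no_induction library and 9 of 9 under the no_induction mean. Krt26, a type I chain of the cuticle of the inner root sheath, lay at 15.7, 39.8 and 92.5 CPM in vitiligo and at 40.9, 90.0 and 147 CPM in no_induction (-1.08 ± 0.30, adjusted p = 0.0334), with 6 of 9 vitiligo libraries under every no_induction library. Krt27, a type I chain of all layers of the sheath, had 158, 354 and 656 CPM in vitiligo, against 278, 593 and 1198 CPM in no_induction (-1.0 ± 0.29, adjusted p = 0.0384). Tchh, trichohyalin, which hardens the sheath and the medulla once it is cross-linked, had 705, 1318 and 2834 CPM in vitiligo, against 1262, 2656 and 4094 CPM in no_induction (-0.93 ± 0.27, adjusted p = 0.0384).

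The remaining inner root sheath genes had values between -0.88 ± 0.28 (Krt71, adjusted p = 0.0539) and -0.49 ± 0.28 (Krt28, adjusted p = 0.278), with Krt25 at -0.80 ± 0.27 (adjusted p = 0.0747). Cortex keratins lay between -0.63 (Krt34, adjusted p = 0.154) and -0.28 (Krt31 and Krt83), cuticle genes between -0.45 (Krt39, adjusted p = 0.115) and -0.21 (S100a3), and Krt36 and Krt84 at -0.13 and -0.26. Whether the sheath differed from the shaft in its response was not tested. Of all 30 members 13 had an unadjusted p under 0.05. Groups overlapped for all 30 members, while 0.0796% of all genes lay lower and 0.694% higher with no overlap.

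The call for Tchhl1 held whichever library was left out (largest adjusted p 0.0262), while the others depended on single libraries. With the level of Hoxb13, a homeobox gene of the tail, as a covariate no member was called, and Tchhl1 stood at -1.12 (adjusted p = 0.219). That fit called 1.95% of all genes. The count of 4 was 1 without vitiligo 047, 000, 260 or the library labelled Vitiligo261 or no_induction 002, 021, 022 or 023, 2 without vitiligo 006, 7 without vitiligo 063 or no_induction 005, and 8 without vitiligo 001, which is also the count without the libraries that stand apart. Over all genes 18.6% were called without vitiligo 001, against 7.74% with all libraries. Adipocyte markers moved with induction, with 11 of 12 higher and sums of 2566 to 7773 CPM in vitiligo against 652 to 1939 CPM in no_induction, and melanocyte markers too, with 4 of 8 lower and sums of 41.4 to 144 CPM in vitiligo against 123 to 174 CPM in no_induction. None of these markers was at 0 in either group, and their part in the result was not tested. With the adipocyte level as a covariate no member was called, and Krt26, Krt27 and Tchh had log2 fold changes of 0.06, 0.38 and 0.18. That fit called 0 of 13826 genes. The adipocyte level did not overlap between the groups, so the fit cannot separate group from adipocyte level, and nothing is read from it.

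In mice with induction, Krt75 and 2 of 7 cortex keratins were higher with ABX, and Krt36 and Krt84 were lower. In vitiligo_ABX against vitiligo 3 of 30 members rose and 2 fell (5.06% of all genes tested were called higher, 8.05% lower and 13.1% in either direction), with a median log2 fold change of 0.78 over the members and 0.02 over all genes. Krt75, a type II keratin of the companion layer, which lies between the inner and the outer root sheath, had 281, 360.5 and 459 CPM in vitiligo_ABX and 85.4, 195 and 260.4 CPM in vitiligo as lowest, median and highest values (0.98 ± 0.23, adjusted p = 0.0113). All 6 vitiligo_ABX libraries exceeded all 9 vitiligo libraries for it, the only member of 30 without overlap (0.671% of all genes lay higher and 2.03% lower with no overlap).

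Krt34 had 598, 796 and 1136 CPM in vitiligo_ABX and 160.0, 383 and 797 CPM in vitiligo (1.04 ± 0.30, adjusted p = 0.0285). Krt86 had 663, 1127 and 1602 CPM in vitiligo_ABX and 229.9, 525 and 1115 CPM in vitiligo (1.01 ± 0.30, adjusted p = 0.0323). Both cortex keratins overlapped between the groups, and the other 5 of the cortex lay at 0.78 to 0.85 with adjusted p between 0.0546 and 0.101. The 9 inner root sheath genes had log2 fold changes of 0.63 to 1.05 and none was called (adjusted p from 0.067 to 0.22, 7 of 9 with an unadjusted p under 0.05), and cuticle genes ran from -0.12 (Krt39) to 0.59 (Krt40). Over all members 19 had an unadjusted p under 0.05.

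Krt36 had 2237, 3013 and 8957 CPM in vitiligo_ABX and 5525, 9212 and 18485 CPM in vitiligo (-1.27 ± 0.33, adjusted p = 0.0185). Krt84 had 1971, 3482 and 11041 CPM in vitiligo_ABX and 3214, 11304 and 23401 CPM in vitiligo (-1.31 ± 0.41, adjusted p = 0.0418). Within vitiligo_ABX the libraries were uneven, since 001 and 002 held 5762 and 8957 CPM of Krt36 and the other 4 held 2237 to 3037 CPM. The interscale keratins Krt2 (-1.12 ± 0.20, adjusted p = 0.00152) and Krt10 (-0.82 ± 0.18, adjusted p = 0.00713) fell in the same comparison.

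The count of 5 rested on single libraries. It was 2 without vitiligo_ABX 006, 3 without vitiligo_ABX 001 or 002 or vitiligo 006, 047, 000 or 260, 10 without vitiligo_ABX 003, 12 without vitiligo 063 and 16 without vitiligo 001, and Krt75 and Krt36 were called in every one of these 15 fits. Without the libraries that stand apart 21 members were called higher and 2 lower. Over all genes 22.3% were called in that fit and 8.43% to 20.1% with 1 library left out, against 13.1% with all libraries. The libraries that stand apart were picked on ratios between members, so this rise is not independent of the values tested. Of 9 interfollicular keratinocyte genes 5 were lower (sums of 13198 to 22721 CPM in vitiligo_ABX against 17229.9 to 36109.7 CPM in vitiligo), of 12 adipocyte genes 11 were lower (419 to 1146 CPM against 2566 to 7773 CPM), and of 8 melanocyte genes 4 were higher (140.1 to 241 CPM against 41.4 to 144 CPM), with no marker at 0. Their part in the result was not tested. With the Hoxb13 or the adipocyte level as a covariate no member was called, and with the adipocyte level Krt34 and Krt86 had log2 fold changes of -0.16 and -0.50 and Krt36 and Krt84 of 0.52 and 0.15. These fits called 0.228% and 0.00714% of all genes. Neither covariate overlapped between the groups, so the fits cannot separate group from covariate, and nothing is read from them.

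**Figure D3:**
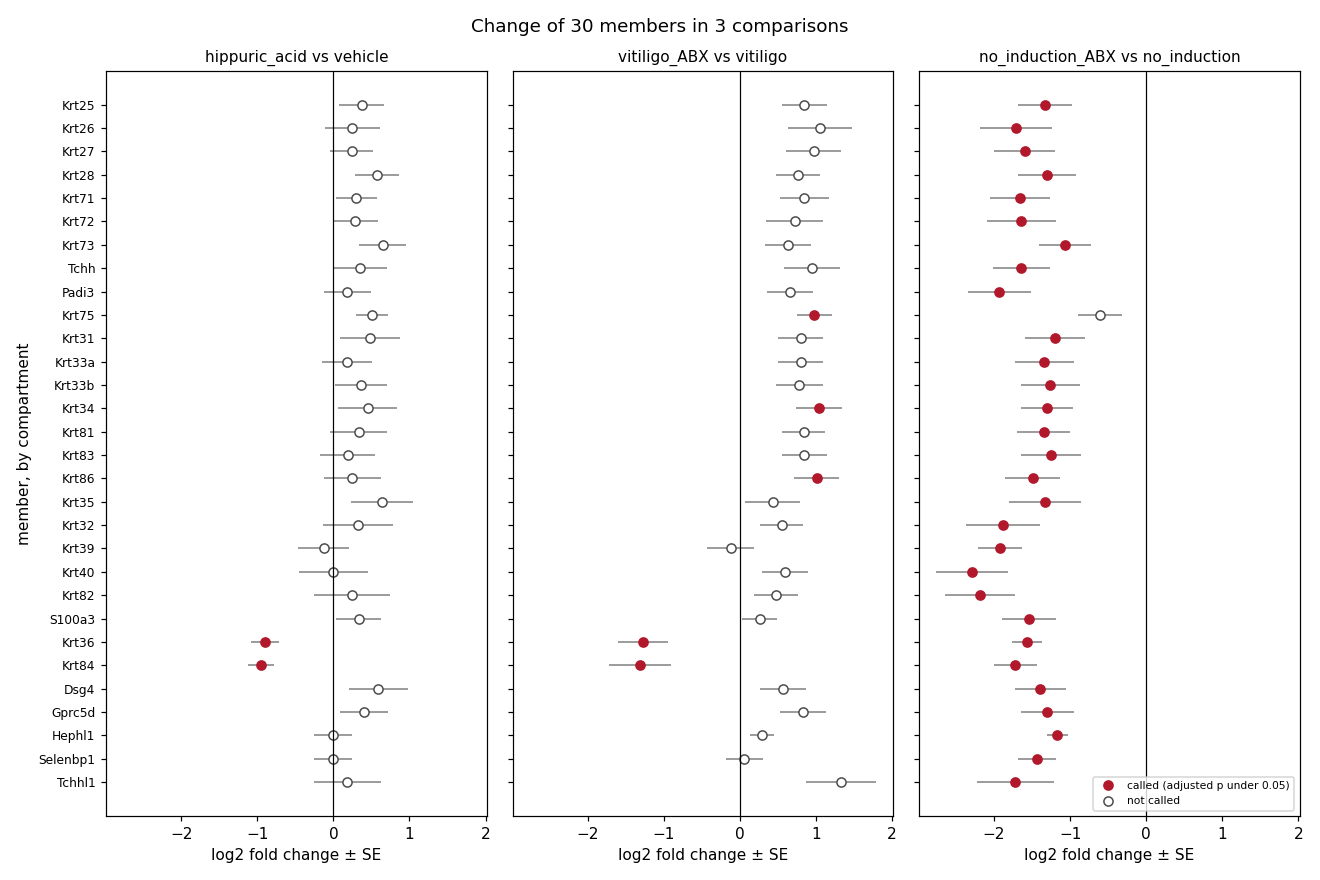
Log2 fold change ± SE of 30 members, by compartment, for hippuric_acid against vehicle, vitiligo_ABX against vitiligo and no_induction_ABX against no_induction (filled, called at an adjusted p under 0.05 by edgeR; open, not called). Krt36 and Krt84 lie left of 0 and are filled in all 3 panels, while the other members are open in the first, mostly open on the right of 0 in the second and mostly filled on the left in the third.

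In mice that had no induction, nearly every member was lower with ABX. In no_induction_ABX against no_induction 29 of 30 members fell and 0 rose (15.8% of all genes tested were called lower, 15.4% higher and 31.1% in either direction), with a median log2 fold change of -1.46 over the members and 0 over all genes. All 9 inner root sheath genes (median -1.64), all 7 cortex keratins (median -1.30), all 5 cuticle genes (median -1.92), Krt35, Krt36, Krt84 and the other 5 follicle genes (median -1.39) fell. Krt75 of the companion layer was the member not called (-0.61 ± 0.29, adjusted p = 0.124), with 89.5, 172 and 333 CPM in no_induction_ABX and 109.6, 323 and 411 CPM in no_induction.

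Krt40 and Krt82 of the cuticle had the largest fold changes. Krt40, a type I keratin of the hair cuticle, had 1.28, 10.7 and 24.5 CPM in no_induction_ABX and 35.5, 55.5 and 97.7 CPM in no_induction (-2.29 ± 0.47, adjusted p = 0.00246). Krt82, a type II keratin of the cuticle, had 8.90, 50.8 and 113 CPM in no_induction_ABX and 152, 282 and 472 CPM in no_induction (-2.18 ± 0.46, adjusted p = 0.00281). Krt39 had 11.1, 25.7 and 49.3 CPM in no_induction_ABX and 70.5, 101 and 136 CPM in no_induction (-1.92 ± 0.29, adjusted p = 0.00026). In each of these 3 genes all 6 no_induction_ABX libraries lay under all 9 no_induction libraries. Krt32 (-1.88 ± 0.49, adjusted p = 0.00997) and the calcium-binding S100a3 (-1.54 ± 0.36, adjusted p = 0.00451) fell with overlap, no_induction_ABX 006 being the highest of its group for both (268 and 921 CPM).

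In the inner root sheath Padi3 changed most, with 10.5, 33.0 and 66.2 CPM in no_induction_ABX and 57.2, 131 and 219.6 CPM in no_induction (-1.93 ± 0.41, adjusted p = 0.00286). Krt71 had 284, 787 and 1736 CPM in no_induction_ABX and 1046, 2575 and 4306 CPM in no_induction (-1.66 ± 0.39, adjusted p = 0.00507). Tchh had 338, 794 and 1783 CPM in no_induction_ABX and 1262, 2656 and 4094 CPM in no_induction (-1.64 ± 0.37, adjusted p = 0.0033). Krt71 and Tchh overlapped between the groups through no_induction_ABX 001, which was the highest of its group for both. The smallest change in this layer was that of Krt73 (-1.07 ± 0.34, adjusted p = 0.0261).

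Cortex keratins fell by similar amounts, between -1.49 ± 0.36 (Krt86, adjusted p = 0.00615) and -1.20 ± 0.39 (Krt31, adjusted p = 0.029). Krt31 had 69.5, 272 and 785 CPM in no_induction_ABX and 419.8, 834 and 1120.1 CPM in no_induction. Here no_induction_ABX 003 was the highest of its group and overlapped with no_induction, as it did for all 7 cortex keratins. Krt35, an early keratin of the hair matrix and shaft, had 27.7, 142 and 539 CPM in no_induction_ABX and 308, 494 and 932 CPM in no_induction (-1.33 ± 0.47, adjusted p = 0.0434).

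Hephl1 had 47.8, 66.1 and 85.9 CPM in no_induction_ABX and 111, 155 and 182 CPM in no_induction (-1.17 ± 0.14, adjusted p = 3.61e-05), and Krt36 had 2878, 3622 and 5676 CPM in no_induction_ABX and 7279.7, 11434 and 15294 CPM in no_induction (-1.57 ± 0.20, adjusted p = 4.13e-05). These 2 members had the smallest p of all 30, and neither overlapped between the groups, nor did Krt84 (1482 to 7581 CPM in no_induction_ABX and 9807 to 18790.1 CPM in no_induction; -1.72 ± 0.28, adjusted p = 0.000335). With Krt39, Krt40 and Krt82 these were the 6 members without overlap (4.43% of all genes lay lower and 2.73% higher with no overlap). Of the other follicle genes, Dsg4, a cadherin of the desmosomes that join hair cells, changed by -1.39 ± 0.33 (adjusted p = 0.00584), Gprc5d, an orphan receptor of cells that make hard keratin, by -1.30 ± 0.35 (adjusted p = 0.0116), Selenbp1 by -1.43 ± 0.25 (adjusted p = 0.000582) and Tchhl1 by -1.72 ± 0.51 (adjusted p = 0.0185).

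Leaving out 1 library gave 24 to 30 called members, the lowest without no_induction_ABX 004, and 29 without the libraries that stand apart. Of all genes 24.5% to 33.9% were called with 1 library left out, and 30% without the libraries that stand apart. Calls lost without some single library were those of Krt73, Krt31, Krt33b, Krt83 and Krt35. Of 12 adipocyte genes 11 were lower (sums of 401 to 707 CPM in no_induction_ABX against 652 to 1939 CPM in no_induction), of 9 interfollicular keratinocyte genes 5 were lower (13614 to 26029.7 CPM against 20759 to 46939.5 CPM), and of 8 melanocyte genes 2 were lower (45.6 to 182 CPM against 123 to 174 CPM), with none at 0. Their part in the result was not tested. With the adipocyte level as a covariate 18 members were called lower and the median over the members was -2.26, and with the level of Hoxb13 3 were called and the median was -1.60. Of all genes 22.9% and 1.33% were called in these fits. Neither covariate overlapped between the groups, so the fits cannot separate group from covariate, and nothing is read from them.

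Between the groups given ABX, 15 members were called higher with induction, though most of these calls rested on single libraries. In vitiligo_ABX against no_induction_ABX 15 of 30 members rose and 0 fell (3.72% of all genes tested were called higher, 1.25% lower and 4.97% in either direction), with a median log2 fold change of 1.63 over the members and 0.01 over all genes. The 15 were 2 of 9 inner root sheath genes (Krt28 and Padi3), 5 of 7 cortex keratins, 4 of 5 cuticle genes and 4 of the 5 other follicle genes. In 13 of the 30 members all 6 vitiligo_ABX libraries exceeded all 6 no_induction_ABX libraries (2.16% of all genes lay higher and 1.18% lower with no overlap). This comparison shares its libraries with the 2 comparisons of ABX with no ABX, so the values are not independent of those above.

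Krt40 had 43.6, 78.9 and 100.2 CPM in vitiligo_ABX and 1.28, 10.7 and 24.5 CPM in no_induction_ABX (2.57 ± 0.54, adjusted p = 0.0213). Krt82 had 213, 289 and 449 CPM in vitiligo_ABX and 8.90, 50.8 and 113 CPM in no_induction_ABX (2.38 ± 0.51, adjusted p = 0.0222). Padi3 had 73.5, 115 and 204 CPM in vitiligo_ABX and 10.5, 33.0 and 66.2 CPM in no_induction_ABX (1.92 ± 0.43, adjusted p = 0.0276). None of the 3 overlapped between the groups. Hephl1 had 103, 146 and 211 CPM in vitiligo_ABX and 47.8, 66.1 and 85.9 CPM in no_induction_ABX, again with no overlap (1.18 ± 0.17, adjusted p = 0.00488), and it was the only member called without any 1 of the 12 libraries. The cortex keratins that rose were Krt33a, Krt34, Krt81, Krt83 and Krt86 (1.71 to 1.89), and Krt31 (1.71 ± 0.47, adjusted p = 0.0569) and Krt33b (1.69 ± 0.45, adjusted p = 0.0512) did not pass.

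Krt36 had 2237, 3013 and 8957 CPM in vitiligo_ABX and 2878, 3622 and 5676 CPM in no_induction_ABX (0.16 ± 0.33, adjusted p = 0.831), and Krt84 stood at 0.14 ± 0.46 (adjusted p = 0.903). The ranges of the groups overlapped fully for Krt36, and the standard errors leave room for differences of either sign. The count of 15 was 1 without vitiligo_ABX 001 or 002 or no_induction_ABX 002, 3 without no_induction_ABX 004, 6 without vitiligo_ABX 006, 8 without vitiligo_ABX 004 and 17 without no_induction_ABX 003 or 005. It was 20 without the libraries that stand apart, and all 30 values stayed positive there. Of all genes 7.56% were called in that fit, and 1.63% to 6.18% with 1 library left out. With the Hoxb13 level as a covariate 1 member, Hephl1, was called (1.09, adjusted p = 0.0135), and the median over the members was 1.5. That fit called 2.81% of all genes.

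The difference between the 2 responses to ABX was tested as an interaction, the log2 fold change of ABX with induction minus that without. It was called positive for 27 of 30 members and negative for 0 (6.68% of all genes tested were called positive, 4.77% negative and 11.5% in either direction), with a median of 2.12 over the members and -0.03 over all genes. All 9 inner root sheath genes (1.68 to 2.76, median 2.50), Krt75 (1.58 ± 0.39, adjusted p = 0.00963), all 7 cortex keratins (1.99 to 2.49, median 2.13), all 5 cuticle genes (median 2.42) and the other 5 follicle genes were called. Tchhl1 (3.04 ± 0.73, adjusted p = 0.00777) and Krt40 (2.87 ± 0.57, adjusted p = 0.00213) had the largest values, and Hephl1 (1.45 ± 0.22) the smallest adjusted p (0.000397). Krt35, the 1 gene of the matrix and early shaft, did not pass (1.76 ± 0.60, adjusted p = 0.056). Of 11 genes of the outer root sheath and bulge and of 9 dermal papilla genes, 0 had a called interaction.

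Krt36 and Krt84 had interaction values of 0.28 ± 0.39 (adjusted p = 0.681) and 0.39 ± 0.50 (adjusted p = 0.656). A p that misses the threshold does not show that their responses were alike. Each had a called fall with ABX in both settings, by 1.27 and 1.31 on the log2 scale with induction and by 1.57 and 1.72 without. Without any 1 of 30 libraries 27 or 28 members were called, and 28 without the libraries that stand apart, whereas 5 were called with the adipocyte level as a covariate. Of all genes 16.6% were called without the libraries that stand apart and 1.52% with the adipocyte level. The adipocyte level did not overlap between ABX and no ABX, with or without induction, so that fit cannot separate group from adipocyte level. Melanocyte markers had called positive interactions in 4 of 8 genes, and in 7 without the libraries that stand apart, and their part in the result was not tested.

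**Figure D4:**
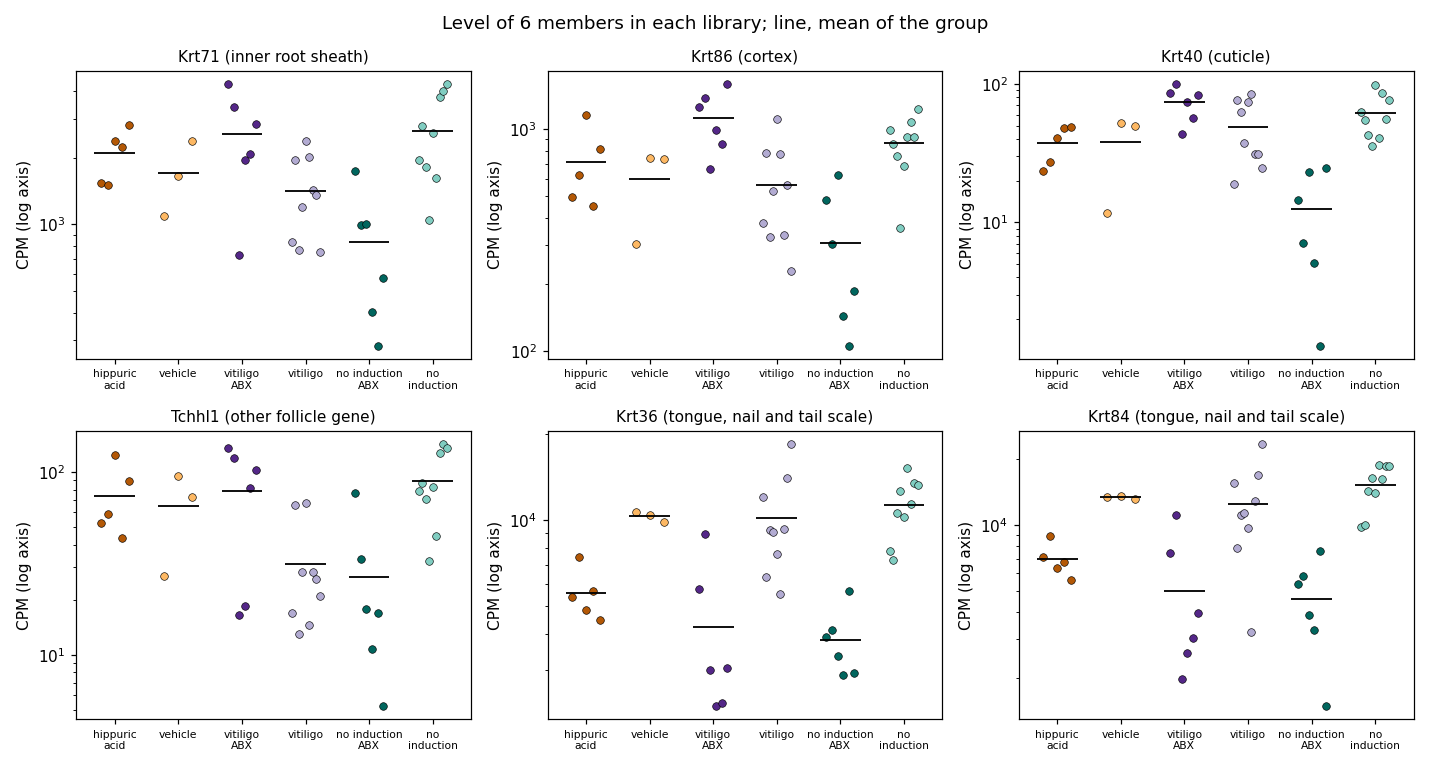
CPM (log axes) of 6 members in each library (points) by group, with the group mean as a line. Krt40 of the cuticle is lowest in no_induction_ABX (1.28 to 24.5 CPM), under all libraries of vitiligo_ABX (43.6 to 100.2 CPM) and no_induction (35.5 to 97.7 CPM). That range overlaps those of hippuric_acid (from 23.5 CPM), vehicle (from 11.7 CPM) and vitiligo (from 18.8 CPM). Krt36 in hippuric_acid (4472 to 7411 CPM) lies under all vehicle libraries (9869 to 10713 CPM).

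With hippuric acid, Krt36 and Krt84 were lower and no other member was called. In hippuric_acid against vehicle 0 of 30 members rose and 2 fell (8.29% of all genes tested were called lower, 5.48% higher and 13.8% in either direction), with a median log2 fold change of 0.29 over the members and 0.02 over all genes. Krt36 had 4472, 4867, 5378, 5662 and 7411 CPM in the 5 hippuric_acid libraries and 9869, 10409 and 10713 CPM in the 3 vehicle libraries (-0.90 ± 0.18, adjusted p = 0.00854). Krt84 had 5605, 6354, 6747, 7117 and 8902 CPM in hippuric_acid and 13116, 13449.5 and 13547 CPM in vehicle (-0.95 ± 0.17, adjusted p = 0.00498). For both genes all 5 hippuric_acid libraries lay under all 3 vehicle libraries, and these were the only members without overlap (12.6% of all genes lay lower and 8.88% higher with no overlap in this small comparison).

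The share of members called (2 of 30) was below that of all genes, so nothing is read from the count itself. The other 28 members ran from -0.13 ± 0.33 (Krt39) to 0.65 ± 0.31 (Krt73). Krt71 had 1512, 1539, 2243, 2379.8 and 2804 CPM in hippuric_acid and 1094, 1653 and 2369 CPM in vehicle (0.30 ± 0.27, adjusted p = 0.5). Krt31, made in scales as well as in the cortex, was not called. Its lowest, median and highest values were 545, 589.9 and 1088 CPM in hippuric_acid and 238, 615 and 813 CPM in vehicle. Krt75 came nearest to the threshold (0.51 ± 0.21, adjusted p = 0.13), and with Krt36 and Krt84 it made up the 3 members with an unadjusted p under 0.05. Vehicle 001, which held Y-linked transcripts, was the lowest of the vehicle libraries for all 28 members other than Krt36 and Krt84, and without it the median over the members was 0 and Krt36 and Krt84 were still called lower.

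Both calls held whichever of the 8 libraries was left out (largest adjusted p 0.0284 for Krt36 and 0.0196 for Krt84), and Krt75 was called higher as well without vehicle 003. They were lost when all 38 libraries were fitted together and with the Hoxb13 or the adipocyte level as a covariate. Of all genes 12.1%, 3.37% and 0.0213% were called in these fits. Neither covariate overlapped between the groups, so the covariate fits cannot separate group from covariate. Interfollicular keratinocyte genes fell together with the pair, 8 of 9 being lower, with sums of 11955 to 15506 CPM in hippuric_acid against 31023 to 44505 CPM in vehicle, and among them Krt2 (-1.68 ± 0.16, adjusted p = 0.000492) and Krt10 (-1.45 ± 0.16, adjusted p = 0.000836) of interscale skin. Adipocyte genes were lower too, in 10 of 12, with sums of 409 to 1241 CPM in hippuric_acid against 2241 to 2914 CPM in vehicle. None of these genes was at 0, and their part in the result was not tested.

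Vehicle against no_induction, both wild type and without ABX, compares injected with untreated skin. By edgeR 0 of 30 members and 0 of 14175 genes were called (0% of all genes tested), with 2 members at an unadjusted p under 0.05, and DESeq2 and limma-voom also called 0 members. All 30 values were negative, with a median of -0.61, and Krt71 had 1094, 1653 and 2369 CPM in vehicle against 1046, 2575 and 4306 CPM in no_induction as lowest, median and highest values (-0.64 ± 0.39, adjusted p = 0.999). The 3 libraries with Y-linked transcripts lie in these groups, and without them the median was -0.25. The groups overlapped for all 30 members, while 0.437% of all genes lay higher and 0.247% lower with no overlap.

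Krt36 and Krt84 were called lower in each of the 3 comparisons of ABX or hippuric acid with its own control, in 1 of which the share of members called lay below that of all genes. Hoxb13 moved the opposite way in the same comparisons, at 2.28 ± 0.24 (adjusted p = 0.000617) in hippuric_acid against vehicle, 2.53 ± 0.46 (adjusted p = 0.00181) in vitiligo_ABX against vitiligo and 1.74 ± 0.26 (adjusted p = 0.000183) in no_induction_ABX against no_induction. Its ranges were 26.3 to 37.7 CPM in hippuric_acid against 4.29 to 9.31 CPM in vehicle, and 13.8 to 34.0 CPM in vitiligo_ABX against 0.323 to 9.62 CPM in vitiligo. In no_induction_ABX the range was 24.8 to 30.3 CPM, against 2.06 to 12.3 CPM in no_induction. The groups did not overlap in any of these pairs, and the part of whatever Hoxb13 marks was not tested. In vitiligo against no_induction Hoxb13 was -1.02 ± 0.44 (adjusted p = 0.145), Krt2 -0.09 ± 0.17 (adjusted p = 0.781) and Krt10 -0.24 ± 0.17 (adjusted p = 0.392). Krt31 of scale and cortex was called in only 1 of the 3 comparisons of ABX or hippuric acid with control. It was lower in no_induction_ABX against no_induction.

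A list of 27 genes held regulators of hair formation together with the enzymes Tgm1, Tgm3, Tgm5 and Padi1. Of these 27 genes, 15 fell and 0 rose in no_induction_ABX against no_induction. Foxn1, a transcription factor that regulates hair keratin genes, changed by -1.25 ± 0.18 (adjusted p = 0.00014), and Tgm1, a transglutaminase that cross-links proteins of cornifying cells, by -0.94 ± 0.11 (adjusted p = 2.69e-05). In vitiligo_ABX against no_induction_ABX 9 rose and 0 fell, with Foxn1 at 1.25 ± 0.23 (adjusted p = 0.0108) and Ovol1 at 0.75 ± 0.15 (adjusted p = 0.0134). The interaction was called for 14 of them, all positive, again led by Foxn1 (1.58 ± 0.24, adjusted p = 0.000397) and Ovol1 (1.15 ± 0.20, adjusted p = 0.000653). In vitiligo_ABX against vitiligo 4 rose, among them Shh, a signal of the growing follicle (1.16 ± 0.30, adjusted p = 0.0179), and Wnt5a (0.51 ± 0.14, adjusted p = 0.0218). Over all genes 15.8% were called lower in no_induction_ABX against no_induction and 3.72% higher in vitiligo_ABX against no_induction_ABX. The shares were 6.68% for a positive interaction and 5.06% for higher in vitiligo_ABX against vitiligo.

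In vitiligo against no_induction 3 of these 27 genes fell, among them Prdm1 (-0.35 ± 0.05, adjusted p = 0.000332) and Ovol1 (-0.41 ± 0.11, adjusted p = 0.0309). That is 11.1% of the list, and 2.47% of all genes were called lower. In hippuric_acid against vehicle 2 rose, Msx1 (1.08 ± 0.17, adjusted p = 0.00306) and Wnt5a (0.59 ± 0.13, adjusted p = 0.0145), and 3 fell, among them the transglutaminases Tgm3 (-0.91 ± 0.13, adjusted p = 0.00158) and Tgm1 (-0.47 ± 0.11, adjusted p = 0.0217). Together they are 18.5% of the list, near the 13.8% of all genes called, so nothing is read from these counts. Without the libraries that stand apart, 15 genes of this list were lower in no_induction_ABX against no_induction, 10 were higher in vitiligo_ABX against no_induction_ABX and 17 had a called positive interaction. The same fits gave 12 higher in vitiligo_ABX against vitiligo and 11 lower in vitiligo against no_induction, which moves these 2 counts by over 1.5 times. Over all genes 22.3% and 18.6% were called in these 2 fits, against 13.1% and 7.74% with all libraries.

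Keratin-associated proteins bind hair keratin filaments in the shaft, and many are near-identical copies, so single values are uncertain. Of 46 genes 41 fell in no_induction_ABX against no_induction (median -1.58), 20 rose in vitiligo_ABX against no_induction_ABX (median 1.62), and 40 had a called positive interaction (median 2.55). In vitiligo_ABX against vitiligo 9 rose and 2 fell, and in vitiligo against no_induction 12 fell, among them Krtap4-13 (-1.65 ± 0.36, adjusted p = 0.00694). Over all genes 15.8% were lower in no_induction_ABX against no_induction, 3.72% higher in vitiligo_ABX against no_induction_ABX and 6.68% positive for the interaction. The shares were 5.06% higher and 8.05% lower in vitiligo_ABX against vitiligo, and 2.47% lower in vitiligo against no_induction. Without the libraries that stand apart the counts were 37 lower in no_induction_ABX against no_induction, 28 higher in vitiligo_ABX against no_induction_ABX, 43 positive for the interaction, 20 higher and 3 lower in vitiligo_ABX against vitiligo, and 16 lower in vitiligo against no_induction. Over all genes 30%, 7.56%, 16.6%, 22.3% and 18.6% were called in these fits, in that order and in either direction. In hippuric_acid against vehicle 3 fell and 0 rose, among them Krtap3-3 (-0.73 ± 0.17, adjusted p = 0.0182) and Krtap3-1 (-0.77 ± 0.18, adjusted p = 0.0219). These 3 are 6.52% of the list, below the 13.8% of all genes called, so nothing is read from the count.

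None of 12 proliferation genes was called by edgeR in any comparison, with 0 to 3 at an unadjusted p under 0.05. Without the libraries that stand apart, 5 were higher in vitiligo_ABX against vitiligo, 1 was lower in no_induction_ABX against no_induction, 5 were lower in vitiligo against no_induction and 4 had a called positive interaction. Over all genes 22.3%, 30%, 18.6% and 16.6% were called in these fits, in that order and in either direction. Of 11 genes of the outer root sheath and bulge, 4 rose in vitiligo_ABX against vitiligo, among them Lgr5 of follicle stem cells (1.07 ± 0.20, adjusted p = 0.00231) and Sox9 (0.81 ± 0.21, adjusted p = 0.0159). Lgr5 also rose in hippuric_acid against vehicle (0.96 ± 0.19, adjusted p = 0.00989), and Krt15 of the bulge in no_induction_ABX against no_induction (0.44 ± 0.17, adjusted p = 0.0496). Each was the only gene of this list called there (9.09%), a share below that of all genes. Of 9 dermal papilla genes, from the mesenchyme that instructs the follicle, 2 rose in hippuric_acid against vehicle, 3 rose and 1 fell in vitiligo_ABX against vitiligo, and 3 rose and 2 fell in no_induction_ABX against no_induction. Over all genes 13.8%, 13.1% and 31.1% were called in these comparisons, in that order. Among 9 sebocyte genes 0 to 2 were called in each comparison.

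Of 7 fibroblast genes 2 rose in hippuric_acid against vehicle, 3 rose and 1 fell in no_induction_ABX against no_induction, and none was called elsewhere. Over all genes 13.8% were called in the first of these comparisons and 31.1% in the second. Without the libraries that stand apart, counts of adipocyte genes called did not change in the 5 comparisons that hold them, counts of keratinocyte genes changed to 3 lower in no_induction_ABX against no_induction and 1 lower in vitiligo_ABX against no_induction_ABX, and melanocyte genes were called in 5 of 8 in vitiligo_ABX against vitiligo, 4 in no_induction_ABX against no_induction, 2 in vitiligo_ABX against no_induction_ABX and 5 in vitiligo against no_induction. Melanocyte genes rose in 2 of 8 in hippuric_acid against vehicle, with sums of 121 to 185 CPM in hippuric_acid against 99.0 to 116 CPM in vehicle. Among the few skeletal muscle, bone and cartilage, and gut genes that could be tested, 0 to 2 of each list were called in any comparison.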

How the data were processed

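Bulk RNA of mouse tail skin was extracted with Trizol, selected with oligo(dT) beads, prepared with the NEBNext Ultra kit and sequenced on a NovaSeq6000, per the labels' protocols. Tools listed in the submitters' processing notes, with no role given, are DESeq2, StringTie 1.3.1, HISAT2 and Bowtie2 2.2.8; the genome build, the counting program and strand handling are not given in the sources used here. The deposited table holds estimated counts (expected counts) per gene, made by the authors, as its values show: 3107 of 19218 genes have a value that is not whole. Of 19220 entries, 1 was incomplete and 1 had no symbol, and both were left out. After rounding to whole numbers no total had moved by more than 20.1 counts.

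Members and gene lists were chosen with earlier results of these data known. All members are accounted for, and of the other lists up to 2 called genes with the smallest p per direction, list and comparison are named. Each comparison used the libraries of its groups in edgeR 4.0.16 (R 4.3.3) with TMM scaling, filterByExpr and a robust quasi-likelihood F test, two-sided, with Benjamini-Hochberg adjustment over all genes tested, which was tested on simulated data. CPM use TMM-scaled totals of 38 libraries, and lengths are exon unions of GENCODE M21. Alternatives were other size factors, no low-count filter, DESeq2 1.42.0, limma-voom with quality weights (limma 3.58.1), all 38 libraries, a replicate block, each library left out, libraries with Y-linked transcripts left out, and the Hoxb13 or adipocyte level as a covariate. Leaving out the libraries that stand apart was added after seeing the data. Library totals of 15.3 to 27.9 M counts limit the precision of the lowest values, such as 1.28 CPM of Krt40 in no_induction_ABX 005. Spread between libraries was wide too, with Krt40 at 1.28 to 24.5 CPM in no_induction_ABX. No 2 libraries of a group agreed within sampling noise.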

Additional observations from a re-analysis of the deposited data

Results flagged for a closer look

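In 8 of 150 tests of a member in a group of 4 to 10 libraries, 1 library lay far from the others by Dixon's criterion, and chance gives about 1 in 20. Vitiligo 001, which stands apart in its ratios, was far above the other vitiligo libraries for 5 members. It held 307 CPM of Krt28 (others 62.4 to 184 CPM), 629.8 CPM of Krt73 (others 129.9 to 365 CPM), 1334 CPM of Krt35 (others 180.0 to 608 CPM), 2192 CPM of S100a3 (others 649 to 1214 CPM) and 840.2 CPM of Selenbp1 (others 309 to 510.3 CPM). No_induction 011, which held Y-linked transcripts, was far above its group for the cuticle keratins Krt32 (831 CPM, others 264 to 524 CPM) and Krt82 (472 CPM, others 152 to 309 CPM). No_induction_ABX 001 was far above its group for Krt26 (76.9 CPM, others 7.73 to 32.8 CPM).

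The change with ABX differed between mice with and without induction, by the interaction term in edgeR, in 9 inner root sheath genes, in 1 companion layer gene, in 7 cortex keratins, in 5 cuticle genes and in 5 other follicle genes.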

How the results depend on the processing

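Signs of the medians over the members were kept under other size factors, without the low-count filter, with DESeq2, with limma-voom and with all 38 libraries in each comparison. Counts of called members moved as follows, each followed by the shares of all genes called in the same fits, in the same order. In vitiligo against no_induction, 4 became 7 with DESeq2, 24 with limma-voom, 8 without the libraries that stand apart, 0 with the Hoxb13 covariate and 0 with the adipocyte covariate, and 1 to 8 when each library was left out in turn. Over all genes 7.74% became 12.6%, 42.4%, 18.6%, 1.95% and 0%, and 4.97% to 18.6% with 1 library left out. In vitiligo_ABX against vitiligo, 5 became 13 with DESeq2, 21 with limma-voom, 3 with a replicate block (Krt26, Krt27 and Tchhl1, all higher and none of them among the 5), 23 without the libraries that stand apart, and 0 with either covariate, and 2 to 16 when each library was left out. Over all genes 13.1% became 17.4%, 31.3%, 1.13%, 22.3%, 0.228% (Hoxb13) and 0.00714% (adipocytes), and 8.43% to 20.1% with 1 library left out. In no_induction_ABX against no_induction, 29 became 11 with a replicate block, 3 with the Hoxb13 covariate and 18 with the adipocyte covariate, and 24 to 30 when each library was left out. Over all genes 31.1% became 10.3%, 1.33% and 22.9%, and 24.5% to 33.9% with 1 library left out. In vitiligo_ABX against no_induction_ABX, 15 became 9 without the low-count filter, 24 with DESeq2, 26 with all 38 libraries and 1 with the Hoxb13 covariate, and 1 to 17 when each library was left out. Over all genes 4.97% became 3.64%, 9.25%, 6.37% and 2.81%, and 1.63% to 6.18% with 1 library left out. In hippuric_acid against vehicle, 2 became 0 with all 38 libraries, with a replicate block and with the adipocyte covariate, and 1, Selenbp1, called higher, with the Hoxb13 covariate, and 2 to 3 when each library was left out. Over all genes 13.8% became 12.1%, 6.29%, 0.0213% and 3.37%, and 8.18% to 19.6% with 1 library left out. In vehicle against no_induction the count was 0 in each of these settings. The interaction count of 27 became 0 with a replicate block, which called 0 of all 14310 genes, and 5 with the adipocyte covariate, and was 27 to 28 when each library was left out. Over all genes 11.5% became 1.52% with the adipocyte covariate, and 8.18% to 18.8% with 1 library left out.

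The adipocyte covariate turned the sign of called members in vitiligo against no_induction, to 0.06 for Krt26, 0.38 for Krt27 and 0.18 for Tchh. It did so too in vitiligo_ABX against vitiligo, to -0.16 for Krt34, -0.50 for Krt86, 0.52 for Krt36 and 0.15 for Krt84. Adipocyte levels in vitiligo (7.09 to 8.40) lay above all those of no_induction (4.56 to 6.28) and vitiligo_ABX (3.62 to 5.64). These fits thus cannot separate group from adipocyte level, and nothing is read from the signs. The cause was not tested. Library numbers shared between groups did not pair them, since the correlations of same-numbered libraries ran from -0.14 to 0.38 and not every library was closest to its own number. No library had gut transcripts over 10 times the median, so no fit without such libraries was made. Leaving out a vehicle library leaves 2.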
